A study of Homo sapiens with 6 samples.

Results

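The matrix metalloproteinases (MMP), the ADAMTS proteases (a disintegrin and metalloproteinase with thrombospondin motifs) and their tissue inhibitors (TIMP) were examined in UMUC3-c31, a derivative, by its name, of the human bladder cancer line UMUC3, with and without the synthetic androgen R1881. These families were chosen with earlier results of these data known, among them a fall of ADAMTS1. Members were taken by gene symbol alone: MMP plus a number, ADAMTS plus a number, or TIMP1 to TIMP4. Only probe sets that the platform annotation gives to 1 gene were used. This gave 44 of 18129 genes, made up of 22 MMP, 18 ADAMTS and 4 TIMP genes, which together had 100 probe sets. Where a gene had several probe sets, the brightest by its mean over the 6 arrays stood for it. ADAMTS7 was not analysed here, and the set shared by MMP23A and MMP23B was left out of the members by the rule.

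All 6 samples came from this 1 line after 24 h in charcoal-stripped serum, which is depleted of steroid hormones. A group of 3 then received ethanol vehicle and a group of 3 received 10 nM R1881, each for 24 h before total RNA was taken, and each sample went on 1 Affymetrix array. The design text calls the replicates biological. The sources used here do not say how c31 was made. On the second principal component over genes (19.6% of the variance) vehicle replicate 1 lay apart at 11, with the other vehicle arrays at -8.21 and -6.99, so the calls of ADAMTS1 and MMP16 are also given without it.

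MMPs and ADAMTS proteases are zinc-dependent enzymes that are made as inactive precursors. Outside the cell or at its surface they cut collagens, proteoglycans and other matrix proteins, and also shed or release growth factors and receptors. TIMPs bind the active site of these enzymes and block it, so that the RNA level of a protease does not by itself give its activity. In bladder carcinoma the gelatinases MMP2 and MMP9 are known mostly for their association with invasion.

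R1881 lowered 2 of the 44 genes, ADAMTS1 and MMP16, to 0.824 and 0.797 times the vehicle signal, and raised none by the test over all genes. The TIMPs did not pass the test, and nor did MMP14, a collagenase anchored in the cell membrane. MMP9 and MMP19 stood higher and MMP1 and MMP2 lower with R1881, without passing in this test. Under alternative settings MMP1, a dim gene on this array, passed with the mean of its 2 probe sets, and MMP19 passed in 2. The calls of ADAMTS1 and MMP16 were both lost whenever any 1 array was left out. In bulk RNA a lower signal cannot tell fewer cells with a transcript from less RNA per cell.

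Values are on the log2 scale, where a difference of 1 is a doubling, and a difference is that of R1881 from vehicle, given with its standard error (SE) in the fit. The test was limma's moderated linear model over all 18129 genes, two-sided, with Benjamini-Hochberg adjustment and a threshold of 0.05, and n = 3 arrays per group throughout. The members' calls, 2 lower and 0 higher (4.55% and 0%), stood beside 0.816% of all genes called lower and 1.6% called higher. The fall of ADAMTS1 was known when the members were chosen, so these shares are a description only. The members' median difference was 0.02, beside 0 over all genes tested. By sign 25 members were higher and 19 lower, and the sign of 23 held in every alternative run. Runs that change only the prior or the adjustment leave the difference as it was, so they could not turn a sign. An unadjusted limma p under 0.05 was found for 8 of the 44 (18.2%), 4 higher and 4 lower, where 14.3% of all genes had one. The groups did not overlap for 7 members (15.9%), 3 higher and 4 lower, beside 18.5% of all genes.

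**Figure D1:**
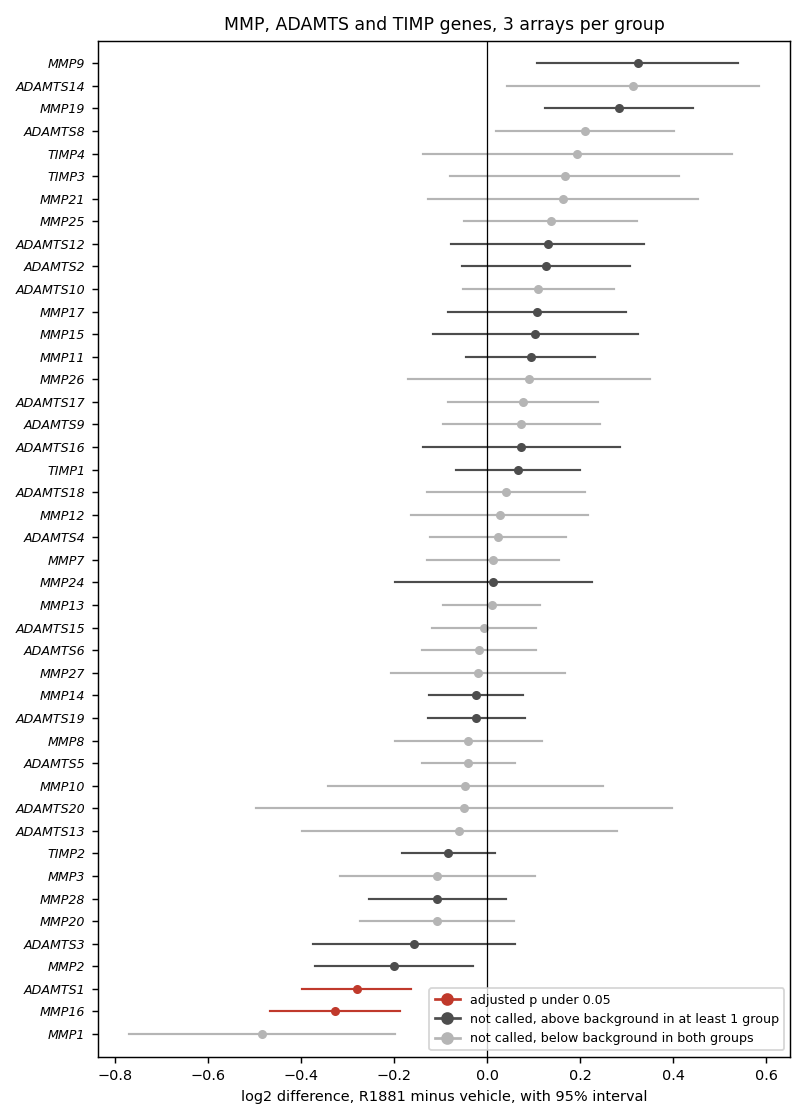
The log2 difference (R1881 minus vehicle, x axis) of each of the 44 members with its 95% interval from the limma fit, ordered by size. Red marks ADAMTS1 and MMP16, the genes called. The intervals of MMP1 and MMP2 also lie wholly below 0, and those of MMP9, MMP19, ADAMTS14 and ADAMTS8 wholly above it. Dark grey marks the other members above the background level in at least 1 group, and light grey marks the 26 below it in both.

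Arrays give a signal for transcripts that are not there, so a background level was set at 4.99, the 90th percentile of the means of 423 olfactory receptor and keratin-associated protein genes. Of the members 18 lay above it in at least 1 group (40.9%, beside 60.9% of all genes) and 26 below it in both. The 18 were MMP2, MMP9, MMP11, MMP14, MMP15, MMP16, MMP17, MMP19, MMP24, MMP28, ADAMTS1, ADAMTS2, ADAMTS3, ADAMTS12, ADAMTS16, ADAMTS19, TIMP1 and TIMP2. ADAMTS3 passed the level in vehicle only, with a mean of 5.0. Among these 18, 2 were called (11.1%), beside 3.86% of all genes above the level. Groups did not overlap for 5 of them (27.8%), beside 25.9%.

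Of the labelled cell type's markers, KRT18 and KRT8, keratins of simple epithelium, lay well above background (vehicle means 10.7 and 7.91). The uroplakin genes UPK1B, UPK2 and UPK3A, markers of differentiated urothelium, lay below it, as did KRT5 and KRT20. UPK1A and UPK3B lay just above it at 5.03 and 5.34. In all, 7 of 14 urothelial markers passed the level in at least 1 group. Of these GATA3 barely did so by its R1881 mean only (5.02), and FOXA1 by its vehicle mean only (5.01). PPARG and KRT19 lay below the level. With R1881 KRT18 fell by 0.37 ± 0.05 and KRT7 rose by 0.40 ± 0.06 (limma adjusted p = 0.00830 and 0.0192). KRT18 passed in each of the 6 leave-outs, and KRT7 in 1 of them, with limma adjusted p up to 0.104 (0.0657 without vehicle replicate 1). The summed log2 values of the 14 markers ran from 73.2 to 73.6 in vehicle and from 73.7 to 74.0 with R1881.

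ADAMTS1, a secreted protease of aggrecan and versican that is known also as an inhibitor of angiogenesis, fell with R1881. Its vehicle arrays read 7.22, 7.14 and 7.09 and its R1881 arrays 6.85, 6.90 and 6.86. The groups did not overlap, and the R1881 arrays were the tighter group, with an SD of 0.03 beside 0.07. The difference was -0.28 ± 0.05 (SE, n = 3), or 0.824 times the vehicle level (95% interval 0.760 to 0.893), with a limma adjusted p of 0.0373. The call was carried by the brighter of its 2 probe sets, one whose probes can match more than 1 transcript. On the other the arrays read 5.62, 5.78 and 5.78 in vehicle and 5.51, 5.54 and 5.69 with R1881, so that the groups overlapped, and the difference was -0.15 ± 0.07 (limma adjusted p = 0.453 with every probe set tested). In that wider test the brighter set did not pass either (limma adjusted p = 0.0592). With the mean of both sets the gene kept its call, at -0.21 (limma adjusted p = 0.0469).

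MMP16, also called MT3-MMP, is anchored in the cell membrane and can activate the precursor of MMP2. It fell on its brightest probe set, from 7.32, 7.15 and 7.20 in vehicle to 6.86, 6.96 and 6.87 with R1881. The lowest vehicle array lay above the highest R1881 array. The difference was -0.33 ± 0.06 (SE, n = 3), or 0.797 times the vehicle level (95% interval 0.723 to 0.879), with a limma adjusted p of 0.0415. The set is one whose probes can match related transcripts. Of its 6 probe sets 5 were lower and 1, below the background level, was higher (0.09 ± 0.07), with a median of -0.21 over the 6. The second brightest set had vehicle arrays of 7.07, 6.91 and 6.99 and R1881 arrays of 6.95, 6.56 and 6.78, which overlapped, and a difference of -0.23 ± 0.10. With the mean over the 6 sets the gene stood at -0.17 and lost its call (limma adjusted p = 0.119).

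Both calls lay close to the threshold. Ordered by p, ADAMTS1 and MMP16 stood at places 371 and 394 of the 438 genes called (2.42% of those tested). Without vehicle replicate 1, 2 or 3 the adjusted p of ADAMTS1 was 0.0845, 0.122 and 0.0737, and without R1881 replicate 1, 2 or 3 it was 0.136, 0.117 and 0.135. For MMP16 the same leave-outs gave 0.0923, 0.0792 and 0.142, and 0.153, 0.0981 and 0.155. The size of the differences moved less, between -0.31 and -0.25 for ADAMTS1 and between -0.36 and -0.28 for MMP16. For both genes p was 0.10 in an exact two-sided permutation test over the 6 arrays, which cannot go lower with 3 against 3.

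**Figure D2:**
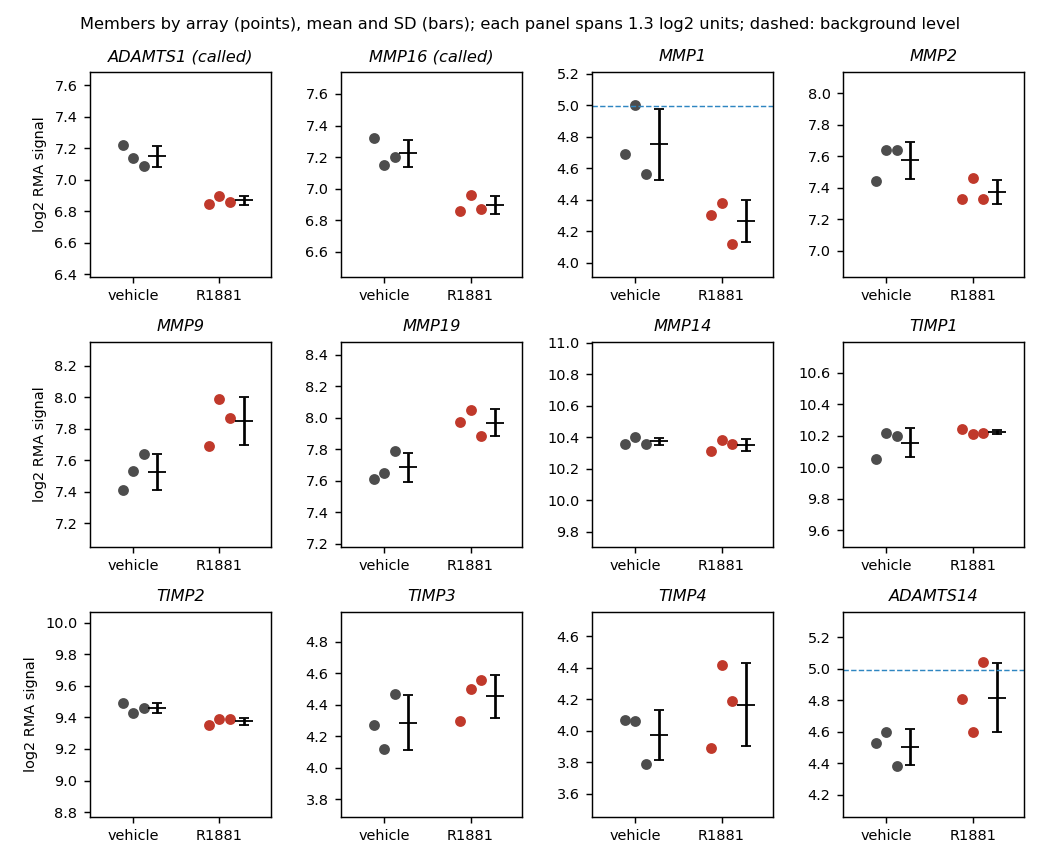
The log2 signal (y axis) of 12 members on each of the 6 arrays as points, vehicle in grey and R1881 in red, with the group mean and SD beside them. Every panel spans the same range of log2 signal, so the separate groups of ADAMTS1, MMP16, MMP1, MMP9 and MMP19 can be set beside the nearly level MMP14 and TIMP1, and a dashed line marks the background level of 4.99 where it falls within the panel.

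The other membrane-bound MMPs lay within a narrow range. MMP14, also called MT1-MMP, is the main surface activator of MMP2 and cuts fibrillar collagen. Its arrays read 10.36, 10.40 and 10.36 in vehicle and 10.31, 10.38 and 10.36 with R1881. The groups overlapped and the difference was -0.02 ± 0.04, with a 95% interval of 0.917 to 1.06 times the vehicle level. Its 4 probe sets gave differences from -0.02 to 0.07. MMP15, MMP17, MMP24 and MMP25 differed by 0.01 to 0.14 with limma adjusted p of 0.481 to 0.961, and MMP25 lay below background. MMP16 was thus the 1 member called among the 6 membrane-type genes.

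The gelatinases, which cut denatured collagen and the collagen of basement membranes, stood on opposite sides of 0. MMP2 had vehicle arrays of 7.44, 7.64 and 7.64 and R1881 arrays of 7.33, 7.46 and 7.33. The groups overlapped at 1 array each, and the difference of -0.20 ± 0.07 did not pass (limma adjusted p = 0.274). All 4 probe sets of MMP2 were lower by sign, from -0.35 to -0.09. MMP9 had vehicle arrays of 7.41, 7.53 and 7.64 and R1881 arrays of 7.69, 7.99 and 7.87. All R1881 arrays were above all vehicle arrays, the difference was 0.32 ± 0.09, and it did not pass (limma adjusted p = 0.167, 95% interval 1.08 to 1.45 times the vehicle level). MMP9 had 1 probe set, so that no second reading could be set beside it. Neutrophils and macrophages are rich in MMP9. Of 11 immune markers 3 (CD68, CSF1R and, by its R1881 mean only, CD3E) lay above background. PTPRC, the pan-leukocyte marker CD45, and the neutrophil marker MPO lay below it. The summed log2 values of the 11 ran from 45.3 to 45.6 in vehicle and from 45.0 to 45.6 with R1881. Most terms of these sums lay below background, so the sums cannot show whether immune RNA changed. CD68 and CSF1R differed by -0.24 and -0.09 and CD3E by 0.19, none passing (limma adjusted p = 0.328, 0.563 and 0.297).

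MMP19, a secreted protease that cuts basement membrane proteins, was the member nearest to a call on the side of a rise. Its vehicle arrays read 7.61, 7.65 and 7.79 and its R1881 arrays 7.97, 8.05 and 7.88. The groups did not overlap, and the difference was 0.28 ± 0.07 (limma adjusted p = 0.106), or 1.22 times the vehicle level (95% interval 1.09 to 1.36). It passed when genes below background were left out (0.0450) and with a trended, robust prior (0.0344). Its 5 probe sets did not move together. The second brightest gave 0.28 ± 0.11, also without overlap, and another 2 gave 0.15 ± 0.07 and 0.01 ± 0.13. The remaining one, whose probes can match related transcripts, gave -0.13 ± 0.09.

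MMP1, the interstitial collagenase that opens the triple helix of collagen, had the lowest difference of all 44 but lay below the background level in both groups. On its brightest set the vehicle arrays read 4.69, 5.0 and 4.56 and the R1881 arrays 4.30, 4.38 and 4.12. The groups did not overlap, and the difference was -0.48 ± 0.12 (limma adjusted p = 0.120). On its other set the arrays read 4.73, 4.58 and 4.67 in vehicle and 4.16, 4.30 and 4.23 with R1881, again without overlap and with less spread. There the difference was -0.43 ± 0.06, and it was the 1 member probe set of 100 to pass when every probe set was tested (limma adjusted p = 0.0202), beside 1.61% of all probe sets. That call was lost whenever any 1 array was left out (limma adjusted p of 0.0516 to 0.108). With the mean of its 2 sets MMP1 passed too (limma adjusted p = 0.0102), and did so in 5 of 6 leave-outs, with 0.0582 without R1881 replicate 1. Since both groups lay below background, no fold is given. The other collagenases, MMP8 and MMP13, lay below background with differences of -0.04 to 0.01.

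**Figure D3:**
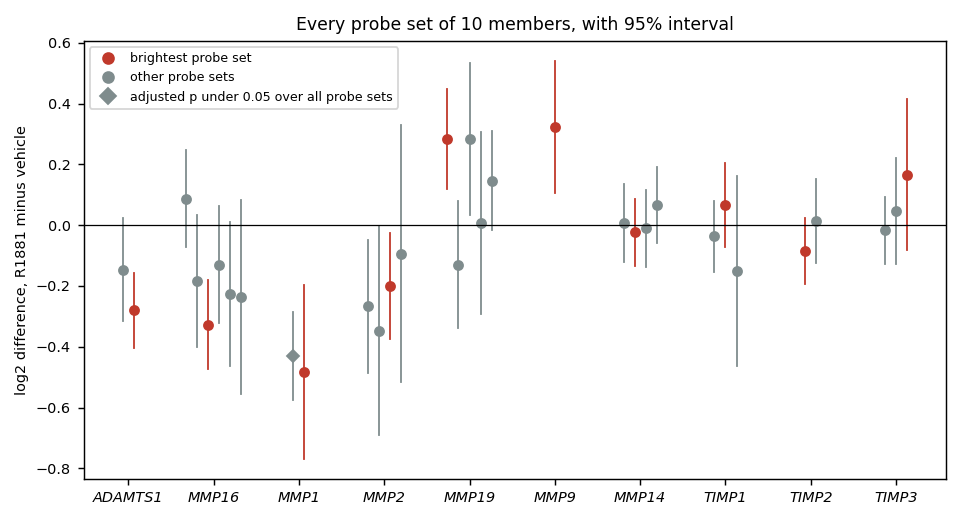
The log2 difference (R1881 minus vehicle, y axis) with 95% interval for every probe set of 10 members, the set that stands for the gene in red and the others in grey. Both sets of ADAMTS1 and of MMP1 and all 4 of MMP2 lie below 0, the sets of MMP19 lie on both sides, and the diamond marks the MMP1 set that passed when every probe set was tested.

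The stromelysins MMP3, MMP10 and MMP11 differed by -0.11 to 0.09, and of these MMP11 lay above background. The matrilysins MMP7 and MMP26, small secreted enzymes, lay below background with differences of 0.01 and 0.09. MMP12, MMP20, MMP21, MMP27 and MMP28 differed by -0.11 to 0.16, with MMP28, also called epilysin, above background. None of these 10 genes passed, and their smallest limma adjusted p was 0.485.

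Besides ADAMTS1, no ADAMTS gene passed. The other proteoglycan-cutting members were low on this array: ADAMTS4 and ADAMTS5, the main aggrecanases of cartilage, lay below background in both groups, as did ADAMTS8, ADAMTS9, ADAMTS15 and ADAMTS20. ADAMTS8 read 3.46, 3.61 and 3.61 in vehicle and 3.74, 3.92 and 3.65 with R1881, which did not overlap (0.21 ± 0.08, limma adjusted p = 0.307). The other 5 differed by -0.05 to 0.07.

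Of the procollagen N-proteinases, which remove the amino-terminal propeptide of fibrillar collagens, ADAMTS14 had the highest difference. It read 4.53, 4.60 and 4.38 in vehicle and 4.81, 4.60 and 5.04 with R1881, with 1 value shared between the groups and both means below background (0.31 ± 0.11, limma adjusted p = 0.282). The difference was 0.20 without R1881 replicate 3. ADAMTS2 and ADAMTS3 stood at 0.13 and -0.16. ADAMTS12, known to cut cartilage oligomeric matrix protein, was above background and differed by 0.13. ADAMTS13, the protease of von Willebrand factor, lay below background. With ADAMTS6, ADAMTS10, ADAMTS16, ADAMTS17, ADAMTS18 and ADAMTS19 it differed by -0.06 to 0.11 (limma adjusted p of 0.516 to 0.909).

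None of the 4 TIMP genes passed by limma, and 0 had an unadjusted p under 0.05. TIMP1 read 10.05, 10.22 and 10.20 in vehicle and 10.24, 10.21 and 10.22 with R1881. Vehicle replicate 1 was the low value, and the other vehicle arrays lay within the R1881 range or beside it. The difference was 0.07 ± 0.06 (limma adjusted p = 0.632), with a 95% interval of 0.955 to 1.15 times the vehicle level, and its other probe sets stood at -0.04 and -0.15. TIMP2, which besides blocking MMPs joins MMP14 in activating the precursor of MMP2, read 9.49, 9.43 and 9.46 in vehicle and 9.35, 9.39 and 9.39 with R1881. Its groups did not overlap, but the difference was -0.08 ± 0.04 (limma adjusted p = 0.425, 95% interval 0.881 to 1.01 times the vehicle level), and its other set gave 0.01 ± 0.06. TIMP3, which binds to the matrix and also blocks ADAMTS proteases, read 4.27, 4.12 and 4.47 in vehicle and 4.30, 4.50 and 4.56 with R1881. TIMP4 read 4.07, 4.06 and 3.79 in vehicle and 3.89, 4.42 and 4.19 with R1881. Both lay below background with overlapping groups, and their differences were 0.17 ± 0.10 and 0.19 ± 0.14. Leaving out 1 array took that of TIMP3 from 0.08 (vehicle replicate 2) to 0.26 (vehicle replicate 3), and that of TIMP4 from 0.07 (R1881 replicate 2) to 0.33 (R1881 replicate 1).

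The intervals bound the size of a difference in array signal that could go unseen. Of the 16 members above background that did not pass, all 16 had a 95% interval within 1.5-fold either way on the set that stands for the gene, and 14 had one within 1.3-fold. A dimmer set of MMP2, with means of 5.63 and 5.28, had a wider interval, from -0.69 to -0.0023 on the log2 scale. All these intervals bound the array signal only. For the members below background an RNA change may also be hidden under background signal.

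Genes that regulate or resemble these proteases were taken from lists written from general knowledge, with earlier results of these data known. Over 7 lists 5 of 68 measured genes passed (7.35%), beside 2.42% of all genes tested. The choice of lists can itself affect this share, which is a description only. Among 7 measured genes of plasminogen activation, whose product plasmin can activate several MMP precursors, 1 fell, none rose and 6 did not pass (median -0.01). The gene that fell was PLAU, which encodes urokinase. Its arrays read 12.57, 12.51 and 12.58 in vehicle and 12.12, 12.11 and 12.06 with R1881, far apart beside their spread, for a difference of -0.46 ± 0.04 (limma adjusted p = 0.00307). All 3 of its probe sets passed, at -0.46 to -0.66. PLAUR, the urokinase receptor gene, stood at -0.17 ± 0.05 without overlap and did not pass (limma adjusted p = 0.163).

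Of 13 measured regulators of MMP and ADAMTS activity, such as RECK, BSG and A2M, 1 rose, none fell and 12 did not pass (median 0.06). The gene that rose was TFPI2, a secreted protease inhibitor of the matrix, from 7.33, 7.23 and 7.34 to 7.82, 7.74 and 7.74. The groups were well apart on this set, whose probes can match related transcripts (0.47 ± 0.05, limma adjusted p = 0.00492). The other sets of TFPI2 gave 0.19 ± 0.05 and 0.35 ± 0.20, neither past the threshold. With the mean of its 3 sets TFPI2 lost its call (limma adjusted p = 0.0686). Of 12 AP-1 and ETS factors, transcription factors that act on many MMP promoters, ETS1 and ETS2 rose, none fell and 10 did not pass (median 0.06). ETS1 went from 11.68, 11.71 and 11.77 to 12.08, 12.15 and 12.11 (0.39 ± 0.05, limma adjusted p = 0.00682). ETS2 went from 8.06, 7.98 and 8.08 to 8.49, 8.63 and 8.59 (0.53 ± 0.05, limma adjusted p = 0.00410). Neither gene's groups overlapped, and their other probe sets gave 0.39 for both further sets of ETS1 and 0.46 for that of ETS2. Of the further sets of ETS1 the dimmer did not pass with every probe set tested (limma adjusted p = 0.240), and with its most variable set ETS1 lost its call (0.261). TFPI2 lost its call there too (0.523).

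Of 16 measured matrix substrates 1 rose, the fibronectin gene FN1 (0.73 ± 0.08, limma adjusted p = 0.00473), none fell and 15 did not pass, with a median of -0.02. None of 9 ADAM sheddases, 7 ADAMTS-like genes and 4 proprotein convertases passed by limma, with medians of 0.08, 0.06 and 0.03, and 1 gene of each list had an unadjusted p under 0.05, as had 14.3% of all genes. These were ADAM12 (0.28 ± 0.06, limma adjusted p = 0.0940), ADAMTSL4 (0.25 ± 0.09, 0.280) and PCSK7 (0.22 ± 0.05, 0.119). PLAU, TFPI2, ETS1, ETS2 and FN1 each kept their call when any 1 array was left out. With the Benjamini-Yekutieli adjustment ETS1 and TFPI2 lost it (limma adjusted p = 0.0708 and 0.0511), and FN1 lost it with ordinary least squares (0.0740).

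**Figure D4:**
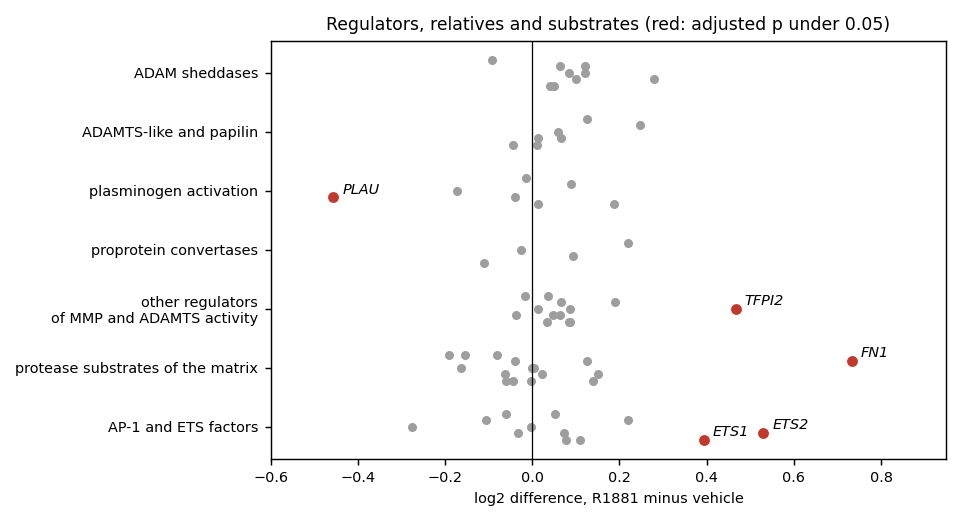
The log2 difference (R1881 minus vehicle, x axis) of each measured gene of 7 lists of regulators, relatives and substrates of the proteases (y axis), spread vertically only to separate points. Red points passed the threshold: PLAU lies alone at -0.46, and TFPI2, ETS1, ETS2 and FN1 lie at 0.39 to 0.73.

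Fibroblasts, endothelial cells and immune cells are rich sources of these proteases and inhibitors. Of 10 fibroblast markers 2 lay above background (ACTA2 and PDGFRB), with COL1A1, COL1A2, COL3A1, LUM and PDGFRA below it, and the summed log2 values of the 10 ran from 40.1 to 41.1 in vehicle and from 39.6 to 40.7 with R1881. Of 7 endothelial markers 2 lay above it, VWF in both groups and TEK by its R1881 mean only. PECAM1 and CDH5 lay below. TEK was the 1 marker of these 3 lists that passed, also when any 1 array was left out. Its mean was 3.72 in vehicle and 5.0 with R1881. The summed log2 values of the 7 endothelial markers ran from 28.6 to 29.3 in vehicle and from 29.7 to 30.4 with R1881. TEK had the highest difference of the 7 (1.28), of which 3 were higher and 4 lower by sign (median -0.07). The sums thus do not describe a shift of the whole list. The part of these cell types in the members' differences was not tested.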

How the data were processed

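Total RNA of 6 samples of 1 cell line was measured on Affymetrix arrays. The authors deposited 1 log2 value per probe set and array, made with RMA, per the submitters' processing notes, a method with background correction, quantile normalization and probe summary, so that a shift of all genes one way would be removed. Version and chip definition are not given in the sources used, and the deposited log2 values carry 2 decimals. Array medians were 5.49 to 5.51 over 49193 probe sets. Of these, 44898 had 1 gene symbol in the platform annotation, 1825 several and 2470 none listed. The Entrez identifiers of all 44 members were found in the RefSeq table.

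The comparison was fitted with limma 3.58.1 in R 4.3.3 (lmFit, eBayes, no trend, no filter, no pseudocount), and the script was checked on simulated arrays. Members and lists were chosen with earlier results of these data known, among them the fall of ADAMTS1. Every member may be named. Values of all arrays are given for members that were called, that had non-overlapping groups above background, or that are TIMPs, and, chosen after their values were seen, for MMP1, MMP2, MMP14, ADAMTS8 and ADAMTS14. Of each list the called genes are named, and PLAUR, ADAM12, ADAMTSL4 and PCSK7 were named after their values were seen. In a group of 3 arrays their number limits the precision. The pairs of arrays with the same replicate number had correlations of 0.0327 to 0.0922 between their deviations from the group means. Pairs with different numbers had -0.0682 to 0.0279, so the same-number pairs were the highest, though all were small. A pairing is thus not excluded, and the main fit took none because the samples share only a number. With a replicate block neither ADAMTS1 nor MMP16 passed (limma adjusted p = 0.119 and 0.137). Alternatives were other normalizations, priors, probe set rules and adjustments, a filter on dim genes, array weights, a replicate block and leaving out each array.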

Additional observations from a re-analysis of the deposited data

How the results depend on the processing

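Over 17 alternatives the count of members lower with R1881 was most often below the 2 reported. It was 1 after another quantile normalization (ADAMTS1), and 0 with the most variable probe set, with every probe set tested (counting the set that stands for each gene), with ordinary least squares, with the replicate block and with the Benjamini-Yekutieli adjustment. It was 0 in each of the 6 leave-outs. With all probe sets of a gene averaged it was 2, then ADAMTS1 and MMP1. The count of members higher was 1 (MMP19) without dim genes and 1 with a trended, robust prior, and 0 in each leave-out. Over all genes, the 438 calls became 757 without dim genes, 895 with the trended prior, 280 with the most variable probe set, 206 with ordinary least squares, 222 with the replicate block, 130 with the Benjamini-Yekutieli adjustment and 209 to 270 in the leave-outs. Of 100 member probe sets 1 passed in the reported fit, 3 with the trended prior, 0 with ordinary least squares, with the replicate block and with the Benjamini-Yekutieli adjustment, and 0 in each leave-out. Of the regulators and relatives, 4 rose and 1 fell. The rises were 6 without dim genes and 5 with the trended prior. They were 3 with the most variable probe set, 3 with ordinary least squares and 2 with the Benjamini-Yekutieli adjustment. The falls were 3 with the trended prior. Among genes of these lists that did not pass in the reported fit, ADAM12 passed in 4 of the 11 alternatives besides the leave-outs. PCSK7, PLAUR and the substrate gene SPARC each passed in 1. The replicate block is shown only as an alternative, since the samples share only a number. The sign of MMP14 turned with the mean of its probe sets (0.01) and with its most variable set (0.067), as did that of TIMP1 (-0.04 and -0.15), and that of TIMP2 with its most variable set (0.013), and none of these values passed. Of the 42 members that did not pass, 2 passed in at least 1 alternative, MMP1 and MMP19. The sign of 23 members held in every alternative run, though runs that change only the prior or the adjustment could not turn one. The leave-outs of KRT18, KRT7, TEK and both other readings of MMP1 were chosen after seeing the data. The intervals of all members bound the array signal only, and 26 members lay below background.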

Other observations

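The probe set shared by MMP23A and MMP23B, which entered no comparison, read 3.48, 3.72 and 4.16 in vehicle and 3.95, 3.78 and 3.78 with R1881. All 6 values lay below the background level of 4.99 and the groups overlapped (0.05 ± 0.16, SE, n = 3 arrays per group).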
